A study of Caenorhabditis elegans with 12 samples.

Results

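The genes *ztf-22* and Y48C3A.5 were described here through the KLF-1 ChIP-seq signal that both share on chromosome II of *Caenorhabditis elegans*. They are 2 of the 1002 genes to which the deposited peak lists assigned a peak, and 4 of the 3116 peaks carried one of these symbols or lay close to the signal. The pair was chosen by the peak calls themselves, because a peak lay there in every *isp-1;ctb-1* list and in no WT list. Presence, fold enrichment and rank at this place are therefore given as a description, with no test. Animals mutant in *isp-1*, allele qm150, and in *ctb-1*, allele qm189, were compared with WT animals of the N2 background. Both strains carried the transgene Is[pvha-6::klf-1-yfp], in which the gut promoter of *vha-6* drives KLF-1 fused to YFP. Whole animals were collected on day 1 of adulthood, and all were fed HT115 bacteria carrying the L4440 plasmid. The tagged protein was pulled down with GFP-Trap in 3 ChIP libraries per strain, each with its own input library. No ChIP library from animals without the tag was used here.

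KLF-1 is a Krüppel-like factor, a transcription factor whose C2H2 zinc fingers contact short GC-rich or CACCC-type elements, and the worm protein acts in the intestine among other tissues. The mutations qm150 and qm189 lie in subunits of complex III of the mitochondrial respiratory chain. Animals that carry both develop slowly and are long-lived. ChIP-seq enriches DNA fragments that were crosslinked to the tagged protein, and a peak is a stretch where the ChIP reads outnumber those of the input. A peak in whole animals gives no cell type, although the promoter used limits the tagged protein mostly to the gut.

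The signal lay deep inside both genes and not at the annotated start of either (WBcel235, gene spans and strands as the deposited lists give them). The gene *ztf-22* (WBGene00012988), annotated as a putative zinc finger transcription factor, runs on the minus strand from 13279780 to 13285829. Y48C3A.5 (WBGene00012989), annotated only as encoding an integral membrane protein, runs on the plus strand from 13272634 to 13304229. The whole of *ztf-22* thus lies within Y48C3A.5 on the opposite strand. The merged region ran from 13281474 to 13282409, a width of 936 bp. The edge nearer the start of *ztf-22* lay 3420 bp inside that gene, and the other edge lay 1694 bp from its end. In Y48C3A.5 the region began 8840 bp after the start, or 10398 bp after the start in the RefSeq gene table. It left 21820 bp to the end of that gene as the lists give it. The centre of the region stood at 64.3% of the length of *ztf-22* and at 29.5% of the length of Y48C3A.5. The tables used here give 1 span per gene, so it is not known whether the region lies in an exon or an intron, nor whether another transcript of either gene starts closer to it.

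**Figure D1:**
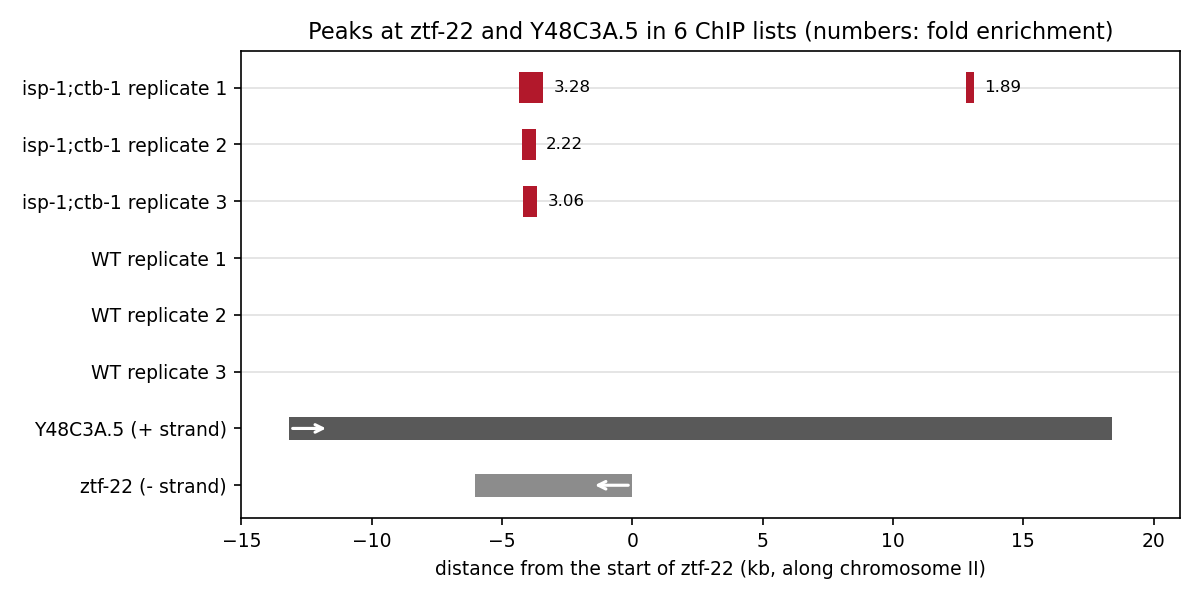
Peaks of the 6 ChIP lists (red bars, with their fold enrichment) over the spans of Y48C3A.5 and *ztf-22* (grey bars, white arrows at their starts), by distance in kb from the start of *ztf-22*. The 3 *isp-1;ctb-1* libraries have a peak inside both genes, replicate 1 has a further peak inside Y48C3A.5 only, and the WT rows are empty.

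The 3 *isp-1;ctb-1* libraries placed the peak at nearly the same bases. In replicate 1 it ran from 13281474 to 13282409 and was 936 bp wide. In replicate 2 it ran from 13281588 to 13282115 and was 528 bp wide. In replicate 3 it ran from 13281614 to 13282162 and was 549 bp wide. The narrower peaks of replicates 2 and 3 both lay inside that of replicate 1, and the bases common to all 3 ran from 13281614 to 13282115, 502 bp. These shared bases made up 95.1% of the peak in replicate 2, 91.4% of that in replicate 3 and 53.6% of that in replicate 1. The centres of the peaks lay 36.5, 53.5 and 90.0 bp apart. The extra width of replicate 1 fell on both sides, with 140 bp before the shared bases and 294 bp after them, and without that library the merged region was 575 bp wide.

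The peak stood near the top of each *isp-1;ctb-1* list. Its fold enrichment over input, the authors' ratio, was 3.28 in replicate 1, where it ranked 4 of 620 peaks. In replicate 2 the fold enrichment was 2.22 and the rank 15 of 386. In replicate 3 it was 3.06 and the rank was again 4, of 565. The median of the whole list was 1.94 in replicate 1, 1.53 in replicate 2 and 1.73 in replicate 3. Relative to the median of its own list the peak was 1.70 times as high in replicate 1, 1.45 times in replicate 2 and 1.77 times in replicate 3. On chromosome II alone it ranked 1 of 85 peaks in replicate 1, 2 of 55 in replicate 2 and 2 of 80 in replicate 3. Among peaks with an assigned gene only, the ranks were 2, 6 and 2. Ranks carry ties, since 2 other peaks shared the value in replicate 2 and 2 in replicate 3.

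The libraries also differed in the width of the peak. That of replicate 1 was 2.95 times as wide as the median of its list, 317 bp, and ranked 28 by width. In replicate 2 it was 1.42 times the median of 372 bp and ranked 109. In replicate 3 it was 1.53 times the median of 358 bp and ranked 140.

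**Figure D2:**
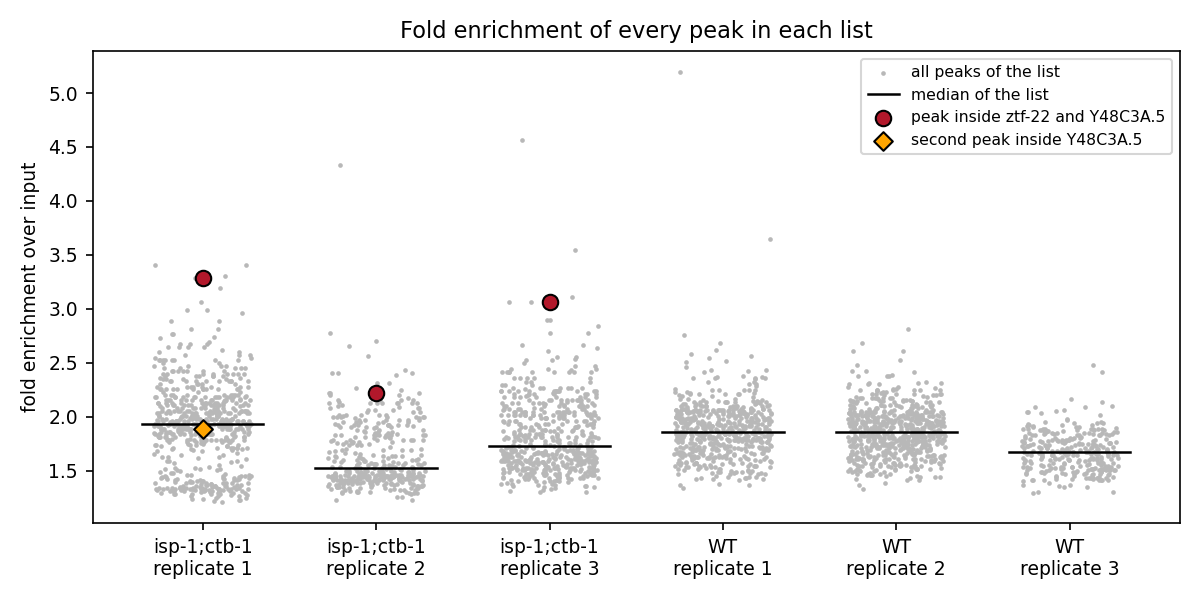
Fold enrichment over input of every peak (grey points) in each of the 6 ChIP lists, with the list's median (black line), the peak inside *ztf-22* and Y48C3A.5 (red circle) and the further peak inside Y48C3A.5 (orange diamond). The red circles of *isp-1;ctb-1* replicates 1, 2 and 3 stand at 3.28, 2.22 and 3.06, and the WT lists have none.

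The deposited p-value differed between the libraries. It was 0.000787 in replicate 1, 0.0606 in replicate 2 and 0.0049 in replicate 3, and the sources used here do not say what these values test. At the threshold the study states, fold enrichment above 1.5 together with p below 0.05, the region therefore had a peak in 2 of the 3 *isp-1;ctb-1* lists and still in no WT list. With a fold enrichment over 2 it kept all 3.

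Y48C3A.5 had a further peak, in *isp-1;ctb-1* replicate 1 only. It ran from 13298625 to 13298915, was 291 bp wide and lay 16216 bp beyond the merged region, outside *ztf-22*. Its fold enrichment was 1.89, rank 349 of 620, and its deposited p-value was 0.202, so that it stood close to the median of its list. The gene is long. At 33149 bp in the RefSeq table it ranked 39 of 19983 protein-coding genes by span, and *ztf-22*, at 6063 bp, ranked 2285, where the median is 2005 bp.

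No WT list held a peak at the region or within 5000 bp of it. The nearest WT peaks were far away, and all 3 libraries named the same neighbours. On the lower side the closest, assigned to *lgc-35*, ended 435 kb away, and on the higher side the closest, assigned to *csp-1* and *fbxc-23*, began 316 kb away. The stretch without any WT peak was 752.5 kb long, from 12846150 to 13598649, and 4 of the 118 gaps between WT regions of chromosome II were longer, with a median gap of 6.16 kb. In that stretch replicates 1, 2 and 3 of *isp-1;ctb-1* had 4, 1 and 3 peaks. In replicate 2 the peak at *ztf-22* and Y48C3A.5 was the only one. The others were the further peak inside Y48C3A.5 in replicate 1 and peaks of both replicates 1 and 3 that lay at F58G1.7, with a fold enrichment of 2.30 in replicate 1 and 2.19 in replicate 3, and near *mrpl-20* and *sam-10*, with 2.08 in replicate 1 and 1.99 in replicate 3. The gene *mrpl-20* encodes a protein of the mitochondrial ribosome. In each library that had several peaks in the stretch, the one at *ztf-22* and Y48C3A.5 was the highest.

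The lowest fold enrichment that was called was 1.21, 1.23 and 1.30 for *isp-1;ctb-1*, against 1.34, 1.34 and 1.29 for WT. The WT lists had 577, 665 and 303 peaks in all. Each list was called against its own input, and fold enrichments of different libraries stand side by side as values with no test. The sources used here give more uniquely mapped reads for every *isp-1;ctb-1* ChIP library than for any WT one, and strain and depth cannot be told apart. Without a called peak, WT animals may still have signal at this place below what the peak caller reports.

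Among all 1218 merged regions, 60 had a peak in every *isp-1;ctb-1* list and in no WT list, which is 4.93%, and the pair of genes was chosen from these. Without *isp-1;ctb-1* replicate 2, where only the remaining *isp-1;ctb-1* lists must hold a peak, the number was 129, or 10.7%. With only peaks of fold enrichment above 2 it was 19, all among the 60 and this region included. At the study's stated threshold it was 3, or 1.83% of the regions formed by the peaks that pass. None of these 3 was among the 60, since each has at least 1 WT peak that does not pass. Peaks without an assigned gene have a blank p-value, so none of them can pass this threshold. By the mean of its peaks' ranks in the 3 lists, each as a percent of the list length with ties at the best rank, the region stood at 1.75% and ranked 3 of the 60. The region just above it, at 1.61%, lay on chromosome III from 10633945 to 10634446 near *meic-1*, and the region just below it, at 2.53%, lay on chromosome I from 4769209 to 4769861 near *rpa-2*, a subunit of replication protein A. In replicate 1 it ranked 2 among the 60, in replicate 2 it ranked 5 and in replicate 3 it ranked 1, level with the region over *xbp-1*, which has the same fold enrichment there. By width it was the first of the 60. The next had 932 bp, on chromosome II from 11749256 to 11750187 near *gpb-1*, the median was 490 bp and the narrowest was 223 bp. The width of the first rests on replicate 1.

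**Figure D3:**
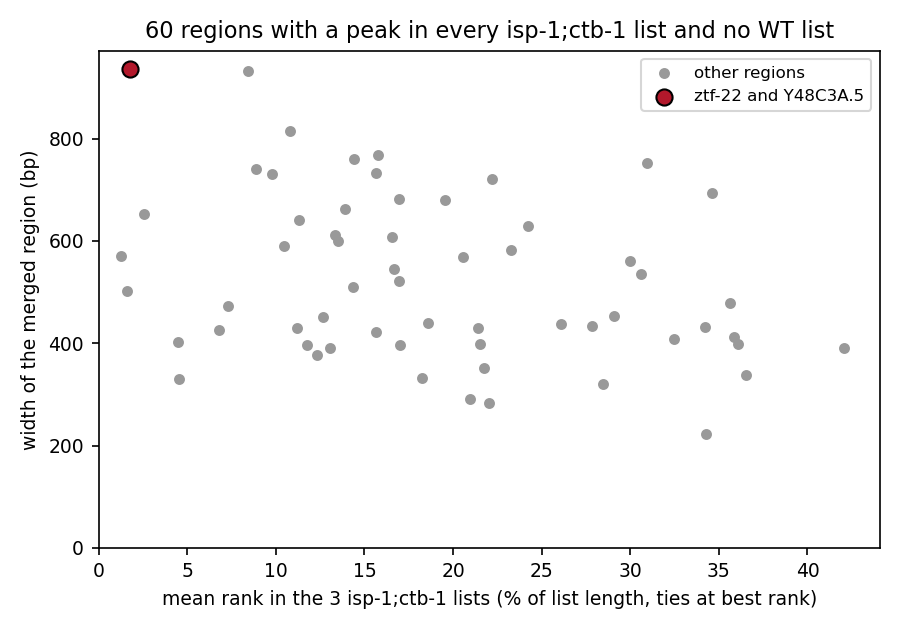
The 60 regions with a peak in every *isp-1;ctb-1* list and no WT list, by their mean rank in the 3 lists (x axis, percent of the list length with ties at the best rank, small values being high peaks) and the width of the merged region in bp (y axis). The region at *ztf-22* and Y48C3A.5 (red) stands at 1.75% and 936 bp, in the upper left corner.

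The place of the region relative to genes was as follows. Of the 60 regions, 34 overlapped no protein-coding gene, 10 lay wholly inside at least 1 and this was the only one wholly inside 2. Among all 1218 regions, 3 lay inside 2 or more protein-coding genes. The lists assigned protein-coding genes to 42 of the 60, and the nearest start of an assigned gene was a median of 170.5 bp from the closest peak, within 500 bp in 26 regions and within 2000 bp in 33. At *ztf-22* and Y48C3A.5 that distance was 3420 bp, and 5 of the 42 were farther away. Taken peak by peak, the distance to the start of *ztf-22* was 3420 bp in replicate 1, 3714 bp in replicate 2 and 3667 bp in replicate 3, and that to the start of Y48C3A.5 was 8840, 8954 and 8980 bp. The median over all peaks with an assigned protein-coding gene was 464, 1489 and 1562 bp for *isp-1;ctb-1* and 2349, 2252.5 and 2468 bp for WT. Peaks wholly inside genes of both strands were rare in every list, at 2, 3 and 2 for *isp-1;ctb-1* and 1, 0 and 0 for WT. Other genes near the region were few. Y48C3A.22 and Y48C3A.23, noncoding RNA genes with the same span from 13283628 to 13283725, lay 1219 bp away and also within *ztf-22*, and no other gene of the RefSeq table lay within 5000 bp.

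The authors' table of the comparison between the strains, with 287 regions, held this region at the same coordinates and built it from the 3 *isp-1;ctb-1* peaks alone. Its mean was 581.25 in condition 2 and 262.23 in condition 1, in a unit that the sources used here do not give. The columns do not name the strains, and the means are therefore given by condition. The ratio of the 2 means was 2.22, the second of 287, behind 2.53 for a region on chromosome II from 9588087 to 9589454 over *eral-1* that also held a WT peak, and ahead of 1.74 for the third. The median ratio of the table was 0.996. A ratio above 2 was found in 2 regions, 0.697% of the table. The table gives no value per library, so these means have no error, and the ratio comes from the contrast that chose the region.

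The ratio was above 1 in 141 of the 287 regions. In 72 regions the average of both means lay between 211 and 843, within 2 times that of this region on either side, a range set after the values were seen, and 48 of them had a ratio above 1, with a median of 1.29. These counts were not tested against each other. Within this range the region had the highest ratio and the next was 1.74, while the region over *eral-1* lies above the upper limit of the range and is not in it. In the 17 regions of the table built from peaks of the 3 *isp-1;ctb-1* libraries and no WT peak, the ratios ran from 1.31 to 2.22. Their median was 1.51. The region had both the highest ratio and the highest condition 2 mean of the 17, against a median of 305 for that mean. Peak calls of the same libraries picked the 17, so their ratios are no separate evidence. By level the region was ordinary, ranking 179 of 287 in condition 2 and 214 in condition 1. The means were used as deposited, with no correction for width. At 936 bp this region was the widest of the 17, and that width rests on replicate 1. How far its means, their ranks and the range of similar level follow from width was not tested. The table names no gene for this region, as for 260 of its 287 regions, whereas each of the 3 peak lists assigns both genes to it.

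**Figure D4:**
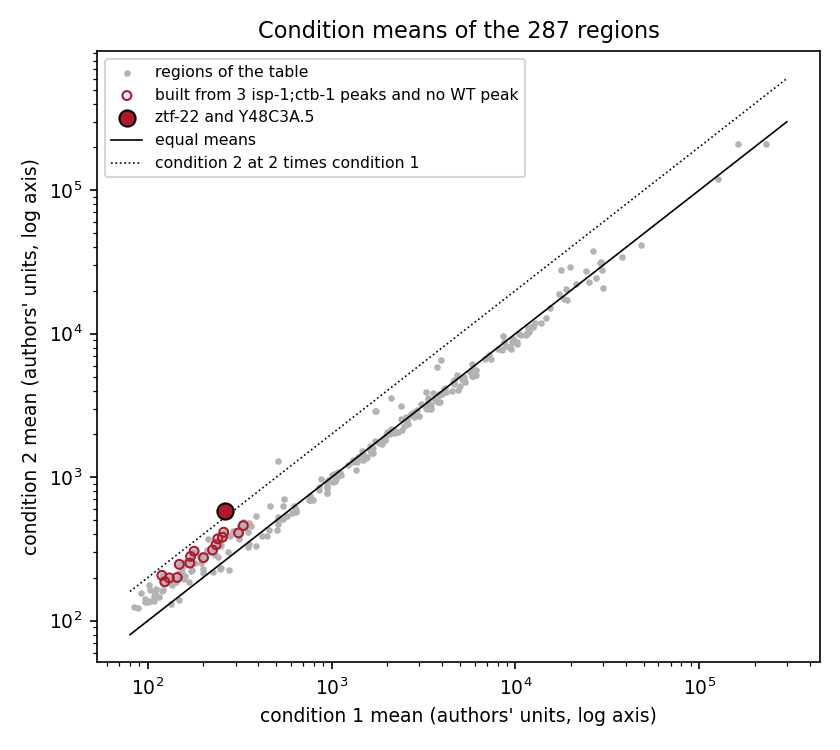
Condition 2 mean against condition 1 mean, in the authors' units on log axes, for the 287 regions of the comparison table, with equal means (solid line) and a ratio of 2 (dotted line). The region at *ztf-22* and Y48C3A.5 (filled red) lies above the dotted line at 581.25 and 262.23. The 17 regions built from 3 *isp-1;ctb-1* peaks and no WT peak (open red circles, this region among them) all lie above the solid line. They were picked by peak calls of the same libraries.

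Genes of the same families were looked up for comparison. The *ztf* symbols mark numbered putative zinc finger transcription factors, and the *klf* genes encode the Krüppel-like factors of the worm. Of 24 *ztf* genes, 2 lay within 2000 bp of one of the 60 regions, *ztf-22* and *ztf-13*, beside 0.555% of all 19983 protein-coding genes. One of these is the gene chosen, so the count says little about the family. The region at *ztf-13* lay on the X chromosome from 3099905 to 3100127, 39 bp from the gene. Its fold enrichments were 1.84, 1.86 and 2.16 in *isp-1;ctb-1* replicates 1, 2 and 3, below those at *ztf-22* in each library. None of the 24 lay within 2000 bp of a region with peaks in at least 2 WT lists, beside 1.24% of all protein-coding genes. Near a region of any list lay 3 of the 24, *ztf-7* being the further one, beside 6.09% of all protein-coding genes. Of the 3 *klf* genes, *klf-2* and *klf-3* had no peak within 2000 bp in any list. The gene *klf-1* had 5 regions, all of them with peaks in at least 2 WT lists and 2 of them with peaks in 2 *isp-1;ctb-1* lists. The animals carry *klf-1* DNA in the transgene, and its part in the peaks at *klf-1* was not tested.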

How the data were processed

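Peaks of 6 ChIP libraries, 3 per strain, were analysed, with each library's group taken from its labels. The authors used the QuickNGS pipeline, with FastQC 0.10.1 for quality, BWA for alignment and Ensembl release 93 for genes. Peak calling was by MACS2 2.0.10, run per library with the matching input as background. The deposited lists hold a fold enrichment, a ratio over input, and a deposited p-value that is blank for peaks without an assigned gene. The authors' table of the strain comparison also holds a fold and a p-value of their own, which were not used. Its condition means were copied as deposited.

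Peaks sharing at least 1 bp were merged across libraries. Genes came from the lists and from the RefSeq table of WBcel235, in which both symbols were found, and lay near a region within 2000 bp. Ranks run from the highest value, with ties given the best rank. No test was run, because the contrast chose the region. Genes, families and lists were chosen with earlier results of these data known. Named genes were the pair, genes within 5000 bp, *ztf* and *klf* genes near a region of 2 or more lists of a strain, neighbours in rank, and the nearest peaks. Regions named for a shared or neighbouring rank in width, fold enrichment or mean ratio, peaks in the stretch without WT peaks, and *ztf-7* were added after their values were seen. Read depth per peak is unknown, so no counting error is given. The libraries of a strain are not stated to be separate cultures. Merging was tested on simulated peaks. No genome sequence was used here, so KLF elements were not searched. Python 3.11.15, numpy 2.4.6, pandas 2.3.3 and matplotlib 3.10.9 were used.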

Additional observations from a re-analysis of the deposited data

How the results depend on the processing

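The region had no WT peak under any threshold, overlap or left-out library tried, and a peak in 2 or 3 *isp-1;ctb-1* lists throughout. A stricter threshold, a larger overlap or a left-out library cannot add a WT peak, so these settings could not change the WT result. Only the search within 5000 bp could have done so. Leaving out 1 *isp-1;ctb-1* library leaves 2 lists by construction. The bases shared by every peak span 502 bp, and leaving out 1 *isp-1;ctb-1* library gave 575 to 936 bp. The number of regions in every *isp-1;ctb-1* list and no WT list was 3 (1.83%) at fold enrichment above 1.5 together with p below 0.05, namely F01D5.10 on chromosome II and 1 region each on IV and V with no protein-coding gene within 2000 bp. None of these 3 was among the 60, because each has at least 1 WT peak that does not pass this threshold. Peaks without an assigned gene have a blank p-value and cannot pass, and the percent is of the regions formed by passing peaks. The number was 19 with a fold enrichment over 2, this region included and all of them among the 60. With 1 library left out it was 60 to 129 (4.91 to 10.7%). Fewer lists must then hold or lack a peak, so the number could hardly fall. Without *isp-1;ctb-1* replicate 2 it was 129. The *ztf* genes near a region of 2 or more *isp-1;ctb-1* lists numbered 1 of 24 by overlap and 4 within 5000 bp, against 2 within 2000 bp, beside 0.51%, 4.24% and 2.39% of all protein-coding genes at these distances. No paired analysis was possible because no result comes from a test. The condition means had no alternative.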
